A study of Rattus norvegicus with 6 samples.

Results

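The genes described here encode the contractile apparatus of smooth muscle and of peritubular myoid cells, the flat contractile cells that wrap the seminiferous tubules of the testis. The 10 genes, chosen by name, are Acta2, Actg2, Tagln, Myl9, Mylk, Cnn1, Myh11, Tpm1, Tpm2 and Des. They were found on the arrays through the RefSeq accession given for each probe, and all 10 were among the 10981 genes tested. They had 14 probes, since Actg2, Mylk, Myh11 and Tpm1 had a pair each, and all 14 were well above background on each of the 6 arrays. RNA came from primary Leydig cells, the testosterone-producing cells between the tubules, of Sprague-Dawley rats, cultured at 34 °C with 10% fetal bovine serum. In 3 samples exosomes, small membrane vesicles, that primary rat Sertoli cells had released were added to the medium at 5 µg/ml for 24 h; they are called exosome. The other 3 samples had none and are called untreated. Each sample was read on 1 array, and the comparison asks how Sertoli cell exosomes alter the transcripts of Leydig cells.

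Smooth muscle contracts when calcium and calmodulin switch on myosin light chain kinase, which phosphorylates the regulatory light chain and lets myosin pull on actin filaments. Transgelin, calponin and the tropomyosins lie along these filaments, and desmin forms the intermediate filaments that tie the apparatus together. Many of these genes are switched on by serum response factor (SRF) with its partner myocardin, through a DNA element called the CArG box. In the testis, peritubular myoid cells and the muscle of blood vessels are known for alpha smooth muscle actin.

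The promoter of Acta2 is shown because its CArG boxes are a textbook example of this control, and that of Mylk because it was the only gene of the 10 that rose. RefSeq windows of build GRCr8, from 250 bases before to 50 bases after a transcription start, were available for 7 of the 10 genes (Acta2, Actg2, Mylk, Cnn1, Tpm1, Tpm2 and Des). Both lie on the minus strand and are written 5′ to 3′ along the gene, and capitals mark CArG boxes (CC and GG around 6 middle bases) with at most 1 G or C in the middle, and MCAT cores (CATTCC or its reverse complement GGAATG), the element of TEAD factors.
Acta2, chr1:241172454-241172753: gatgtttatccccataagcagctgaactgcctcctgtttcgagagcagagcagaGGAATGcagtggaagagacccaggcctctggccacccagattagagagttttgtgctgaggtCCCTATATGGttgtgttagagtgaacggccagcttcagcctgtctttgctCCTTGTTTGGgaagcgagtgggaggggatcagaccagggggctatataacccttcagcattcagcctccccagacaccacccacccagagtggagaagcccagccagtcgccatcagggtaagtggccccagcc
Mylk, chr11:79498525-79498824: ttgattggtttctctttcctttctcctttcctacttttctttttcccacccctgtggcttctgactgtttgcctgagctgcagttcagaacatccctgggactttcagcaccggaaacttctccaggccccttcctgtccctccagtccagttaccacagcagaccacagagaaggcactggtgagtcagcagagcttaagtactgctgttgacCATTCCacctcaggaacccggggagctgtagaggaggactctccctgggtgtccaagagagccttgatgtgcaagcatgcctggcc
The Acta2 window held 2 such boxes, CCCTATATGG starting 134 bases and CCTTGTTTGG starting 84 bases before the start, and an MCAT core 196 bases before it. The other 6 windows held no such box, and MCAT cores stood in the windows of Mylk (36 bases before the start) and Tpm1 (31 bases before the start). Of all 33469 RefSeq windows of this length, 9.42% held such a box and 14.2% an MCAT core. With no G or C allowed, 0 of the 7 windows and 1.64% of all windows held a CArG box; the looser form was chosen after this was seen. The 2 elements did not overlap in these windows, both strands were searched, and a match describes the letters only.

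On the arrays, 67.2% to 72.2% of gene spots were well above background in the exosome group and 72.6% to 75.6% in the untreated group, and 0 spots were saturated. The untreated arrays shared 1 slide, exosome 1 and 2 shared another, and exosome 3 was on a slide of its own, slides being read from shared scan times. Slide and group therefore cannot be told apart, and no comparison within a slide was possible. Whether replicates are different animals or cultures is not in the labels, and the p-values cover the spread of these 6 samples alone, which may be technical. Of the Leydig cell markers, Cyp11a1, Cyp17a1, Hsd3b1, Star, Insl3, Hsd11b1 and Gata4 were measured, Hsd17b3 was too dim to be tested (above background on 1 array), and Lhcgr and Nr5a1 were above background on 0 arrays. In such bulk RNA fewer cells of a type and less RNA per cell cannot be told apart.

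Tagln, Myl9 and Des fell and Mylk rose in exosome-treated cultures, and 9 of the 10 contractile genes had a change below 0. Levels are log2 intensities relative to the 75th percentile of the same array, and changes are log2 differences, exosome minus untreated, ± SE (n = 3 per group). Where a gene had more than 1 probe it was counted by its brighter one. The test was an adjusted p (limma, Benjamini-Hochberg over all tested probes) below 0.05, which 4 of the 10 genes passed, against 43.8% of all genes. Of the 10, 3 fell (30.0%), against 29.2% of all genes, and 1 rose (10.0%), against 14.6%. In 7 of the 10 genes all exosome arrays lay below all untreated arrays, against 37.9% of all genes, and in 1 they lay above, against 24.1% (8 of 10 without overlap, against 62.0% of all genes). The shares that passed the test were near those of all genes. The median change of the 10 genes was -0.46, against -0.19 over all genes, and 8 of the 10 had a change below that median. The plot of levels by array shows each probe.

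**Figure D1:**
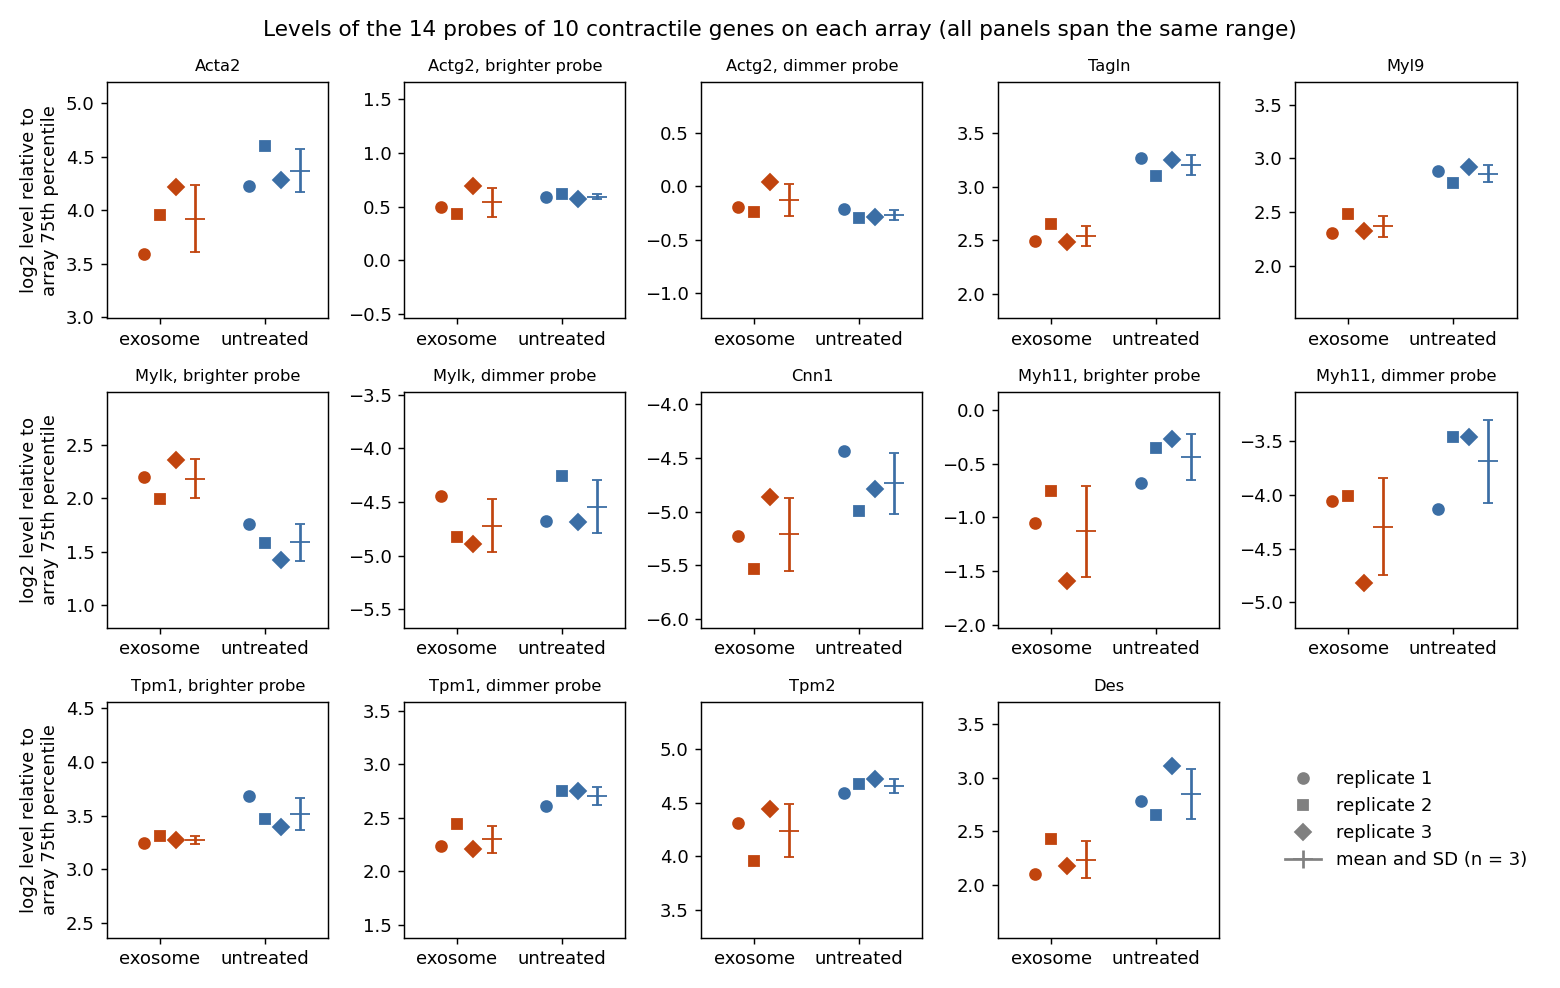
Level of each of the 14 probes (y axis, log2 intensity relative to the 75th percentile of the array) on the 3 exosome arrays and the 3 untreated arrays, with the group mean and SD; every panel spans the same range. The exosome points lie below all untreated points for Acta2, Tagln, Myl9, both Tpm1 probes, Tpm2, Des and the brighter Myh11 probe, and above them for the brighter Mylk probe only.

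The actins of the thin filament did not pass the test. Acta2, alpha smooth muscle actin, had levels of 3.59, 3.96 and 4.22 on the exosome arrays, against 4.23, 4.60 and 4.28 on the untreated arrays. The groups did not overlap, but the highest exosome value lay just under the lowest untreated one. The change was -0.44 ± 0.20 (adjusted p = 0.109, 95% interval -0.92 to 0.03). Actg2, gamma smooth muscle actin of the gut and other viscera, overlapped between groups with both probes: its brighter probe read 0.50, 0.43 and 0.69 with exosomes, against 0.59, 0.62 and 0.57 without. Its changes were -0.05 ± 0.12 (adjusted p = 0.737) and, for the dimmer probe, 0.13 ± 0.12 (adjusted p = 0.405), with 95% intervals of -0.34 to 0.23 and -0.16 to 0.43. The brighter probe minus the dimmer one was 0.69, 0.68 and 0.65 with exosomes, against 0.80, 0.92 and 0.86 without. These differences did not overlap between groups (two-sided exact permutation test, p = 0.1, the smallest that 3 against 3 allows). The actins are nearly identical in protein sequence. Where on the transcripts these probes lie was not examined, so signal shared between actin genes cannot be told apart.

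Of the myosin motor and its switch, the light chain gene Myl9 fell and the kinase gene Mylk rose. Myl9, the regulatory light chain of smooth muscle myosin, had levels of 2.30, 2.48 and 2.32 with exosomes, against 2.88, 2.77 and 2.92 without. All exosome arrays were lower, and the gene fell by 0.49 (SE 0.12, adjusted p = 0.019), to 0.711 of the untreated level. Myh11, the smooth muscle myosin heavy chain, had levels of -1.05, -0.75 and -1.59 with exosomes, against -0.68, -0.35 and -0.27 without, on its brighter probe. Those groups did not overlap, and exosome 3 stood lowest. The change of -0.70 ± 0.24 missed the test (adjusted p = 0.053). It was -0.47 without exosome 3 (adjusted p = 0.098) and -0.89 without exosome 2 (adjusted p = 0.028). The dimmer Myh11 probe gave -0.62 ± 0.29 (adjusted p = 0.121), its groups overlapped, and exosome 3 was lowest there too.

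Mylk, the kinase that phosphorylates the regulatory light chain, was read by a pair of probes. Its brighter probe read 2.20, 1.99 and 2.36 on the exosome arrays, against 1.76, 1.58 and 1.42 on the untreated arrays. Every exosome array was above every untreated one, and the probe rose by 0.59 ± 0.15 (adjusted p = 0.024), 1.51-fold. Its dimmer probe, designed on the same transcript, read -4.44, -4.83 and -4.89 with exosomes, against -4.68, -4.26 and -4.69 without. There the groups overlapped and the change was -0.18 ± 0.19 (adjusted p = 0.469). This probe was dim, with intensities of 29 to 46.4, against 2021 to 4623 for the brighter probe. Under quantile normalization its change was 0.30, beside 0.53 for the brighter probe, so both were then above 0. The 2 probes differed in their change by 0.77, and the difference between them was larger on all 3 exosome arrays than on all 3 untreated ones (two-sided exact permutation test, p = 0.1, the smallest that 3 against 3 allows). The mean of both probes gave 0.21 and did not pass the test (adjusted p = 0.253), so the call rests on 1 probe. Mylk makes several transcripts, long and short kinase forms and telokin, and which of them each probe reads was not tested.

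Of the proteins that lie along the thin filament, Tagln and 1 of the Tpm1 probes fell. Tagln, transgelin or SM22, had levels of 2.49, 2.65 and 2.48 with exosomes, against 3.27, 3.10 and 3.25 without. The groups were far apart beside their spread (SD 0.09 in each), and the gene fell by 0.66 (SE 0.12, adjusted p = 0.011), to 0.632 of the untreated level. Tpm2, beta tropomyosin, had levels of 4.31, 3.96 and 4.44 with exosomes, against 4.59, 4.67 and 4.72 without. All exosome arrays were lower, with exosome 2 lowest, but the change of -0.42 ± 0.15 missed the test (adjusted p = 0.063, 95% interval -0.79 to -0.06).

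Tpm1, alpha tropomyosin, which stabilises actin filaments, was read by probes designed on different transcripts of the gene. The brighter probe read 3.24, 3.31 and 3.27 with exosomes, against 3.68, 3.47 and 3.39 without, a change of -0.24 ± 0.12 (adjusted p = 0.153). The dimmer probe read 2.24, 2.44 and 2.21 with exosomes, against 2.61, 2.75 and 2.75 without, and fell by 0.41 (SE 0.12, adjusted p = 0.036). In both, all exosome arrays were below all untreated ones. Their changes differed by 0.17, which is not a difference beyond the spread (two-sided exact permutation test, p = 0.4), so the call of one probe and not of the other does not show that the transcripts differ. Cnn1, calponin, which restrains myosin on actin, was dim, with levels of -5.23, -5.54 and -4.86 with exosomes, against -4.43, -4.99 and -4.79 without. Its groups overlapped, and its change of -0.47 ± 0.23 (adjusted p = 0.131) was 0.05 under quantile normalization.

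Des, desmin, the intermediate filament protein of muscle, had levels of 2.10, 2.43 and 2.17 with exosomes, against 2.78, 2.65 and 3.11 without. All exosome arrays were lower, and untreated 3 stood highest. The gene fell by 0.62 (SE 0.17, adjusted p = 0.028), to 0.653 of the untreated level. Without untreated 3 the change was -0.48 (adjusted p = 0.086).

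The calls did not hold equally well. Tagln kept its call when any 1 array was left out, with changes of -0.72 to -0.63 and adjusted p-values of 0.012 to 0.05, the last being just below the threshold before rounding. Myl9 missed it without exosome 1 (-0.46), without untreated 2 (-0.53) and without untreated 3 (-0.46). Des missed it without exosome 1 (-0.55), without exosome 3 (-0.58), without untreated 2 (-0.72) and without untreated 3. Mylk missed it without exosome 1 (0.58), without exosome 3 (0.51), without untreated 2 (0.59) and without untreated 3 (0.51). With slide as a random block the 4 genes stayed past the test, at -0.66 for Tagln, -0.49 for Myl9, -0.62 for Des and 0.60 for Mylk. No slide held both groups, so this fit cannot tell a slide effect from a group effect. With replicate number as a block Tagln kept its call (adjusted p = 0.038). Myl9 (adjusted p = 0.063), Des (0.064) and Mylk (0.057) missed the test there. The dimmer Tpm1 probe kept its call in 6 of 15 alternatives and missed it with slide as a block (adjusted p = 0.055) and in 4 of the 6 fits without 1 array (adjusted p = 0.083 to 0.137).

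How far the falls go depends on what is taken as unchanged, as the plot of changes under 3 scalings shows. The median change of all genes was -0.19 with the 75th percentile, 0.01 under quantile normalization and 0.22 when each array was centred on its median. Relative to the median of all genes, Tagln changed by -0.47, Des by -0.43, Myl9 by -0.30 and Mylk by 0.78. Under quantile normalization Tagln (-0.69), Des (-0.65), Myl9 (-0.53) and also Tpm2 (-0.41, adjusted p = 0.033) fell, and Mylk rose by 0.53. There 4 of the 10 genes fell, against 16.1% of all genes, and 1 rose, against 20.2% (36.2% in either direction). Under median centring 0 of the 10 fell, against 7.99% of all genes, and 1 rose, against 33.8% (41.8% in either direction). There Mylk rose by 1.01, and Tagln, Des and Myl9 had changes of -0.25, -0.20 and -0.08. In the values the authors deposited the changes were -0.69 for Tagln, -0.64 for Des, -0.53 for Myl9, -0.40 for Tpm2 and 0.53 for Mylk, all 5 past the test. That is 4 genes that fell, against 16.2% of all genes, and 1 that rose, against 20.2% (36.4% in either direction).

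**Figure D2:**
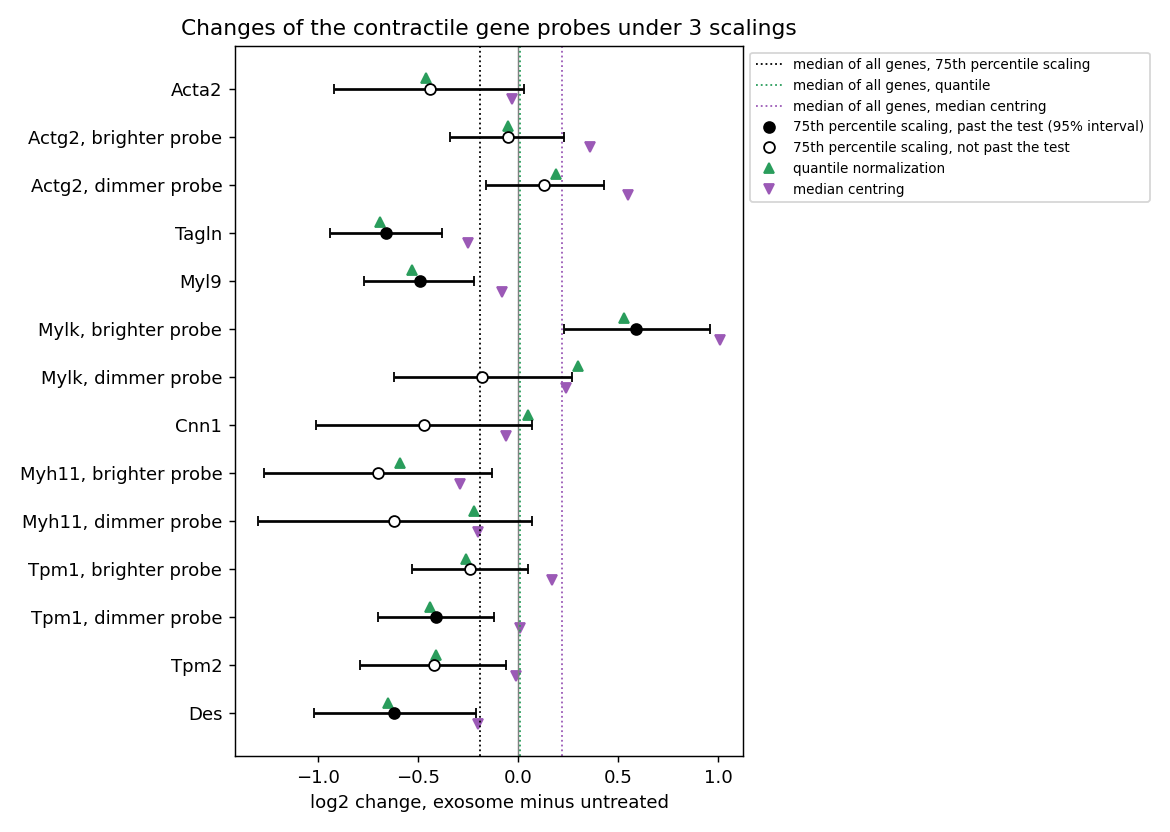
Change of each probe (x axis, log2, exosome minus untreated) with its 95% interval under the 75th percentile scaling, beside its value under quantile normalization and median centring; dotted lines give the median change of all genes under each. Tagln, at -0.66, -0.69 and -0.25, lies left of the matching median, and the brighter Mylk probe, at 0.59, 0.53 and 1.01, lies right of it. Median centring shifts all genes of an array alike. A gene's place beside the median is therefore the same there as under the 75th percentile, and only quantile normalization could alter it.

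Among other filament and adhesion proteins of smooth muscle, Hspb6 fell, and the shares that fell and rose were near those of all genes. Of 24 listed, 19 were tested, 6 fell (31.6%, against 29.2% of all genes) and 2 rose (10.5%, against 14.6%), with a median change of -0.21, beside -0.19 over all genes. Hspb6, a small heat shock protein of smooth muscle that takes part in relaxation, had levels of -3.90, -3.58 and -4.25 with exosomes, against -2.49, -2.40 and -2.30 without. It fell by 1.51 (SE 0.19, adjusted p = 0.0098) and passed the test under every alternative run. Ppp1r14a, also called CPI-17, the inhibitor of myosin phosphatase, and Fhl1, a LIM protein of muscle, fell (-0.57 ± 0.13 and -0.70 ± 0.16). Kcnmb1, a potassium channel subunit of smooth muscle, was above background on 1 array with exosomes and 3 without. It was thus tested mainly through its untreated arrays, and its place among the 6 is a description. Its fitted change of -1.49 ± 0.36 was -0.98 under quantile normalization, where it missed the test (adjusted p = 0.057), and -0.63 under normexp. Pdlim3, a PDZ and LIM protein of actin bundles, was above background on 0 arrays with exosomes and 3 without, and was at least 1.6-fold lower with exosomes. It was tested because of its untreated arrays alone, so its direction was set by the filter on dim probes and no p is given, though it stands among the 6. This bound sets the untreated mean against the dimmest signal that counted as above background on the exosome arrays, or the probe's own where higher. Synm, synemin, a partner of desmin, rose by 0.66 ± 0.13, but the mean of its 2 probes gave 0.05. When either untreated 2 or untreated 3 was left out, 1 gene fell and 0 rose (7.47% and 9.12% of all genes fell). Under median centring 3 fell and 3 rose (7.99% and 33.8% of all genes).

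The non-muscle relatives, the actins, tropomyosins, myosins and linkers that most cells use, included Actb and Flna among those that fell. Of 19 listed, 18 were tested, 10 fell (55.6%, against 29.2% of all genes) and 1 rose (5.56%, against 14.6%), with a median change of -0.50. Actb, beta actin, had levels of 3.82, 3.94 and 3.55 with exosomes, against 4.67, 4.77 and 4.94 without. It fell by 1.02 (SE 0.15, adjusted p = 0.0099) and passed the test under every alternative run, while its close paralog Actg1 had a change of -0.02 ± 0.13 (adjusted p = 0.913). Flna, filamin A, which cross-links actin, fell by 1.18 (SE 0.23, adjusted p = 0.014). The tropomyosins Tpm3 and Tpm4 fell (-0.91 ± 0.16 and -0.81 ± 0.18). Zyx, zyxin, and Actn1, alpha-actinin, both of actin anchorage sites, fell (-0.53 ± 0.12 and -0.84 ± 0.19). Under quantile normalization 7 fell (16.1% of all genes) and 1 rose (20.2%). Under median centring 1 fell (7.99% of all genes) and 3 rose (33.8%). Without untreated 2 there were 2 that fell (7.47% of all genes) and 0 that rose (1.22%). Whether this list differed from the 10 contractile genes was not tested.

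**Figure D3:**
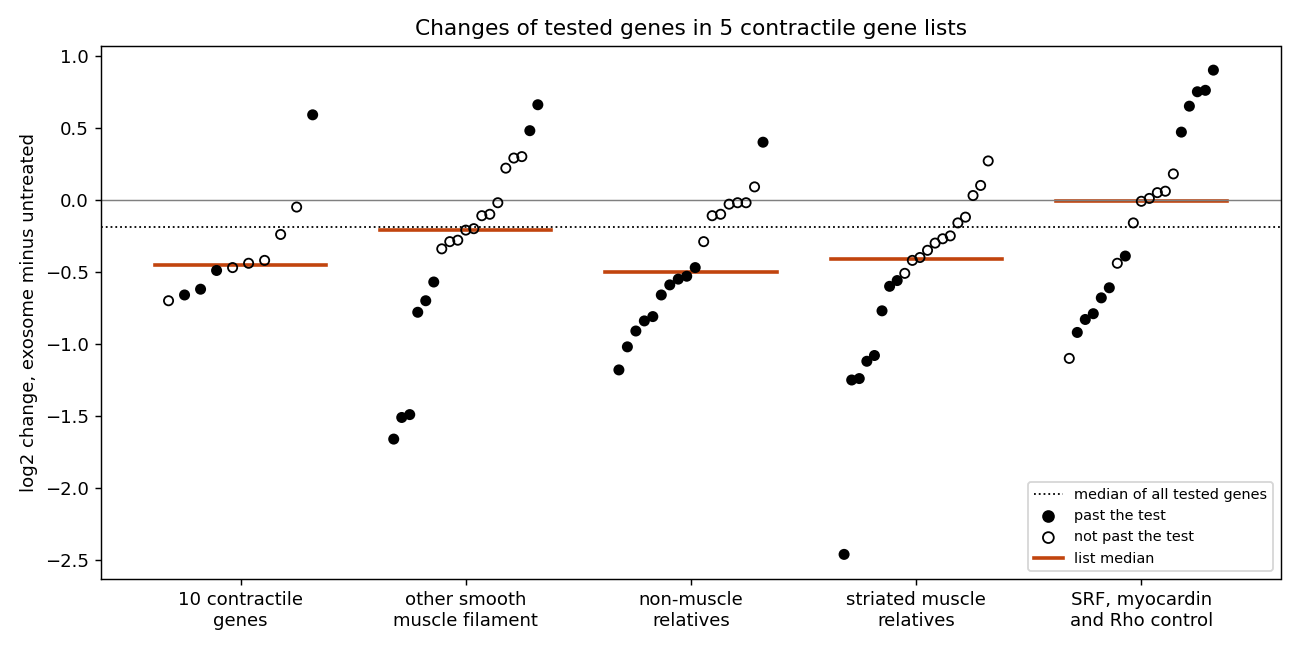
Change of each tested gene (y axis, log2, exosome minus untreated) in 5 lists of contractile genes, ordered within a list; filled points passed the test, bars are list medians and the dotted line is the median of all tested genes. The medians were -0.46 for the 10 contractile genes, -0.21 for other smooth muscle filament genes, -0.50 for non-muscle relatives, -0.41 for striated muscle relatives and -0.01 for the control genes.

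Striated muscle relatives were mostly dim. Of 27 listed, 20 were tested, 8 fell, against 29.2% of all genes, and 0 rose. Of these 8, Actn2 and Ckm were above background on 0 exosome arrays and Myl3, Myl7 and Myh6 on 1, so they were tested mainly through their untreated arrays and the count is given as a description. Under quantile normalization 3 fell (16.1% of all genes). Acta1, skeletal muscle actin, had levels of -3.41, -3.39 and -3.49 with exosomes, against -2.30, -1.98 and -2.25 without, and fell by 1.25 (SE 0.13, adjusted p = 0.0098). Actn2, the alpha-actinin of the sarcomere, was above background on 0 arrays with exosomes and 3 without, and was at least 3.14-fold lower with exosomes; no p is given, for the reason stated for Pdlim3. Myl7, the atrial light chain, was lower under each alternative run, but its fitted change of -1.24 ± 0.14 was -0.72 under quantile normalization and -0.50 under normexp. Myh6, a cardiac heavy chain, fell by 0.60 (SE 0.14), but its change was 0.01 under quantile normalization. Myl1, Mylk3, Myh1 and Myh7 were above background on 0 arrays.

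Genes that control contraction and the contractile genes moved both ways. Of 25 listed, 19 were tested, 5 rose (26.3%, against 14.6% of all genes) and 6 fell (31.6%, against 29.2%), with a median change of -0.01. Srf itself had a change of 0.06 ± 0.12 (adjusted p = 0.702), and Myocd, its muscle partner, was above background on 3 of the 6 arrays and had a change of -1.10 ± 0.99 (adjusted p = 0.394). Ppp1cb, the catalytic subunit of myosin phosphatase, which reverses the action of Mylk, had levels of 2.57, 2.23 and 2.58 with exosomes, against 1.70, 1.59 and 1.39 without. It rose by 0.90 ± 0.15 (adjusted p = 0.011), and the mean of its 3 probes gave 0.43 (adjusted p = 0.031). Dapk3, a kinase that acts on the myosin light chain and on myosin phosphatase, fell by 0.83 (SE 0.14). Ilk, integrin-linked kinase, and Fhl2, a LIM cofactor that binds SRF, also fell (changes of -0.92 ± 0.17 and -0.79 ± 0.16). The small GTPase Rhoa, which keeps myosin phosphatase in check through its kinases, fell by 0.39 (SE 0.12), and Calm3, one of the 3 calmodulin genes, rose by 0.75 ± 0.18, both named after their values were seen. Under median centring 6 rose and 0 fell (33.8% and 7.99% of all genes), and Rhoa had a change of 0.02. Without untreated 2, without untreated 3 and without exosome 1 alike, 1 rose and 2 fell. In that order 1.22%, 1.95% and 3.43% of all genes rose and 7.47%, 9.12% and 12.8% fell.

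Markers of the cells that could carry the contractile transcripts were set beside them. Of all genes 29.2% fell with the 75th percentile, 16.1% under quantile normalization, 7.99% under median centring and 7.47% without untreated 2. In the same order 14.6%, 20.2%, 33.8% and 1.22% rose. Of the peritubular myoid markers outside the 10 genes, 10 of 12 were tested, 0 rose and 1 fell. That gene was Wfdc1 (-0.54 ± 0.11, adjusted p = 0.015), and the median change was 0.04. Under median centring 3 rose and 0 fell (median 0.45). Under normexp 3 rose and 2 fell (17.9% and 35.3% of all genes). Without untreated 2, without untreated 3 or without exosome 1, 0 rose and 0 fell. Their summed level, in multiples of the array's 75th percentile, was 99.6 to 114 with exosomes and 103 to 111 without. Bgn alone made up 53.5% to 60.0% of that sum with exosomes and 52.5% to 55.8% without. Without Bgn the myoid sum was 45.6 to 46.6 with exosomes and 48.7 to 51.6 without, so it was lower on all exosome arrays. The sum of the 10 contractile genes was 62.7 to 72.1 with exosomes and 85.0 to 87.7 without. Tpm2 and Acta2, the brightest of the 10, did not pass the test. Tpm2 made up 24.3% to 31.6% of this sum with exosomes and 28.3% to 30.4% without. Without Tpm2 the sum was 42.9 to 50.4 with exosomes and 60.6 to 62.3 without. Of the myoid markers Ptch1 was above background on 0 arrays. Of the markers of vascular smooth muscle and pericytes, 10 of 12 were tested, 1 rose (10.0%) and 2 fell (20.0%). Their sums were 31.8 to 33.3 with exosomes and 37.4 to 42.7 without. Notch3, a receptor of mural cells, fell by 1.18 (SE 0.16, adjusted p = 0.0098) and passed the test under every alternative run. Cox4i2 had a change of -0.42 ± 0.12 and missed the test under 12 alternatives. Steap4 had a change of 0.47 ± 0.14, missed it under 8, and gave -0.11 with the mean of its 2 probes. Cox4i2 made up 68.2% to 74.0% of the sum with exosomes and 78.2% to 81.2% without, and the sum without it was 8.48 to 10.1 with exosomes and 7.89 to 8.38 without. The share of vascular muscle in the change of the 10 genes was not tested.

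Markers of other cell types that the cultures could hold moved both ways, and most of these counts changed with the scaling or with 1 array. Of 11 tested fibroblast and stromal markers 3 rose (27.3%, against 14.6% of all genes) and 1 fell (9.09%, against 29.2%). Pdgfra (0.49), Col1a1 (0.58) and Mfap5 (0.35) rose and Col3a1 (-0.86) fell. The sums were 118 to 149 with exosomes and 113 to 127 without. Under median centring 6 rose and 0 fell (33.8% and 7.99% of all genes). Without untreated 2 or without untreated 3, 0 rose and 0 fell. Col1a1 missed the test under 11 alternatives and Mfap5 under 8, and the mean of the Col1a1 probes gave 0.04.

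Of 7 tested Leydig cell markers 0 rose (14.6% of all genes) and 2 fell (28.6%, against 29.2%), namely Cyp11a1 (-0.86) and Gata4 (-1.61). The sums were 118 to 144 with exosomes and 120 to 125 without. Under median centring 2 rose and 1 fell (33.8% and 7.99% of all genes). Of 8 tested Sertoli cell markers 1 rose (12.5%, against 14.6% of all genes) and 2 fell (25.0%, against 29.2%). Wt1 rose by 0.49, though the mean of its 3 probes was -0.59. Sums of the Sertoli cell markers were 30.4 to 36.1 with exosomes and 37.3 to 43.9 without. Of the markers that fell, Clu had a change of -1.02. Cst12 was above background on 1 exosome array and 3 untreated arrays, so it was tested mainly through its untreated arrays. Its change of -0.98 was -0.37 under quantile normalization (adjusted p = 0.089), and its place among the 2 is a description. Under median centring 4 Sertoli cell markers rose and 2 fell (33.8% and 7.99% of all genes). Without untreated 2 there were 0 that rose and 1 that fell (1.22% and 7.47% of all genes). Amh and Gata1 were above background on 0 arrays.

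Of 12 tested macrophage markers 4 fell (33.3%, against 29.2% of all genes) and 0 rose (14.6% of all genes). C1qc, C1qa, Cx3cr1 and Adgre1 fell, with changes of -0.82, -0.63, -1.94 and -0.52. Under quantile normalization 2 rose and 3 fell, under median centring 2 rose and 1 fell, and without untreated 2 there were 0 of either. Their sums were 17.6 to 27.2 with exosomes and 27.9 to 29.4 without. Cd68, a lysosomal protein of macrophages, read 3.15, 3.35 and -3.45 with exosomes, against 3.18, 3.47 and 3.40 without, so exosome 3 stood far below the other 5 arrays. Without Cd68 the sums were 17.0 to 17.5 with exosomes and 17.7 to 18.9 without.

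Of 8 tested endothelial markers 5 fell (62.5%, against 29.2% of all genes) and 2 rose (25.0%, against 14.6%). Sox18, Eng and Esam were among those that fell (-1.02, -0.78 and -1.21), and Pecam1 (1.02) was among those that rose. The endothelial sums were 1.42 to 1.68 with exosomes and 1.25 to 1.34 without. Pecam1 alone made up 59.2% to 68.6% of the sum with exosomes and 33.3% to 45.7% without, and the sum without it was 0.527 to 0.578 with exosomes and 0.729 to 0.833 without. Under quantile normalization and under median centring 2 fell (16.1% and 7.99% of all genes) and 2 rose (20.2% and 33.8%). Without untreated 2 there was 1 that fell (7.47% of all genes) and 0 that rose. Of 5 tested germ cell markers Odf2 had a change of 0.46 and Prm2 one of -0.46, both past the test. That is 20.0% either way, against 14.6% of all genes that rose and 29.2% that fell. The mean of the Odf2 probes gave 0.00 and did not pass the test (adjusted p = 0.996). The germ cell sums were 2.13 to 2.53 with exosomes and 1.66 to 1.77 without. Odf2 alone made up 90.8% to 92.9% of the sum with exosomes and 83.6% to 91.5% without. The sum without Odf2 was 0.178 to 0.196 with exosomes and 0.148 to 0.291 without, so the groups overlapped. The Prm2 change was 0.02 under quantile normalization, and 0 germ cell markers rose or fell without untreated 2. Their part in the change of the contractile genes was not tested.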

How the data were processed

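RNA was measured on 6 1-colour (Cy3) Agilent arrays. Per the file headers, the deposited intensity values come from Agilent Feature Extraction 11.0.1.1 on an array designed on rat build rn4, background-corrected for each array, with no scaling across arrays. The log2 values that the authors deposited have the same median (5.68) on each array and correlated with that array's log2 intensity at 0.996 or above, so they run the same way; how they were scaled is not given in the sources used here.

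Outlier spots (388 to 572 per array) were left out, spots of a probe averaged on the log2 scale, and each array's 75th percentile over gene spots subtracted. Of 30367 probes, 18005 had 1 symbol in RefSeq (GRCr8, names only). Probes well above background on at least 3 arrays (20435) were fitted with limma 3.58.1 in R 4.3.3 (prior degrees of freedom 2.60); the Benjamini-Hochberg adjustment ran over these probes. Python 3.11.15, pandas 2.3.3, numpy 2.4.6, scipy 1.17.1 and matplotlib 3.10.9 served for tables and figures. The fit was tested on simulated data. The number of arrays limits the precision. Same-numbered arrays did not deviate together (correlations of deviations -0.087, -0.028 and -0.024), so no pairing was used.

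The 10 genes and the 12 other lists were chosen with earlier results of these data known. The text names all 10 genes. Of other lists it names the called genes of smallest p without overlap (up to 6 in the filament and non-muscle lists, up to 4 elsewhere, all where 5 or fewer were called), and others where this is said or where they did not pass the test. The files hold no mean spot signal, so normexp used the median signal. Alternatives changed the scaling, background correction, filter, probe choice, block or arrays.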

Additional observations from a re-analysis of the deposited data

How the results depend on the processing

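Of the 10 contractile genes, 1 rose and 3 fell. The count that rose was 0 with the replicate block (6.99% of all genes) and 0 with the mean of a gene's probes (11.7% of all genes). It was 0 to 1 when 1 array was left out (1.22% to 15.7% of all genes). The count that fell was 0 under median centring (7.99% of all genes) and 5 under the normexp correction (35.3% of all genes). It was 5 among probes above background on all 6 arrays (30.6% of all genes) and 1 with the replicate block (21.9% of all genes). It was 1 to 4 when 1 array was left out (7.47% to 30.0% of all genes). The replicate numbers are not known to pair samples. Of the other filament and control genes together, 7 rose and 12 fell. Among these genes only 4 rose with no filter (5.70% of all genes) and only 3 rose with the mean of a gene's probes (11.7% of all genes). Only 3 fell under median centring (7.99% of all genes). When 1 array was left out, 1 to 6 of them rose and 3 to 12 fell. Of all genes, 1598 rose and 3209 fell. The higher count was 3716 under median centring, 864 with no filter and 768 with the replicate block, and the lower count 1766 under quantile normalization, 877 under median centring and 1783 in the authors' deposited values. When 1 array was left out, 134 to 1725 of all genes rose and 820 to 3295 fell, the fewest without untreated 2. Signs turned for Actg2 (0.04 with the percentile over probes, added after the data were seen, 0.36 under median centring, 0.04 with the mean of its probes, and -0.13 to 0.00 when 1 array was left out, the highest without exosome 2), the dimmer Mylk probe (0.30 under quantile normalization, 0.24 under median centring and 0.29 in the authors' values), Cnn1 (0.05 under quantile normalization and 0.04 in the authors' values), and both Tpm1 probes under median centring (0.17 for the brighter and 0.01 for the dimmer). Outside the 10 genes they turned for Myh6 (0.01 and 0.02) and Prm2 (0.02 and 0.01) under quantile normalization and in the authors' values, and for Wt1 (-0.59) and Steap4 (-0.11) with the mean of a gene's probes. Median centring shifts all genes on an array alike, while quantile normalization moved Cnn1 and Myh6 but hardly Tagln. The cause of the other moves was not tested.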
